A study of Mus musculus with 8 samples.

Results

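Keratinocytes sorted from mouse back skin by the surface antigen CD34 were compared directly with keratinocytes sorted by the antigen Mts24. The comparison uses 4 of the 8 arrays of the series, chosen by their labels: the CD34 positive and the Mts24 positive fraction of wild type mice and of K14Snail mice. All mice were of the CD1 background, 8 weeks old and of both sexes. K14Snail mice carry a transgene in which the keratin 14 promoter, active in basal keratinocytes, drives Snail, a transcription factor. RNA came from pools, of 11 mice for the CD34 sorts and 9 mice for the Mts24 sorts, with 1 array per genotype and fraction. Cells were freed from skin with trypsin overnight and picked magnetically, CD34 cells through a biotinylated antibody and Mts24 cells through a PE-labelled secondary antibody. The antibody, the kit, the pool of mice and the sorted cells therefore change together, and what each contributes to a difference cannot be told apart. The cells left behind by each sort, CD34 negative and Mts24 negative, were profiled too and are used here as the background of each sort.

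The hair follicle is renewed from compartments that lie at different heights. The bulge, at the base of the permanent follicle, holds slow-cycling stem cells that carry CD34 and that feed the lower follicle in each hair cycle. Above it lie the isthmus and the junctional zone, whose progenitors express Plet1, the gene whose product carries the Mts24 antigen, and which supply the infundibulum and the sebaceous gland. Wnt, BMP, Hedgehog and FGF signals between these cells and the dermis set when bulge cells divide.

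Values are log2 levels made by the authors with RMA, which removes background, puts the arrays on a common scale and combines the probes of a set. Of 19938 genes with a probe set of their own, 10720 were tested, those at or over 7.70 (the median of all values) on at least 2 of the 8 arrays. A difference is CD34 positive minus Mts24 positive, averaged over the wild type and the K14Snail pair, and is followed by the standard error of a limma fit to all 8 arrays. A gene passed when its p-value, adjusted over all genes tested by the Benjamini-Hochberg method, was under 0.05. The genotypes stand in for replicates, so the p-values measure only how far these arrays disagree, and the number of arrays limits the precision. Array medians lay between 7.32 and 7.42, and across genes the wild type and K14Snail arrays correlated at r = 0.983 for CD34 positive and 0.989 for Mts24 positive cells. The sorts correlated almost as highly with each other, at 0.982 in wild type and 0.981 in K14Snail.

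The genes that mark each sort separated the fractions. Cells were picked by the CD34 antigen and by the Mts24 antigen of the Plet1 product. The differences of Cd34 and Plet1 therefore describe the sorting and are no independent result. Cd34 stood at 13.57 in wild type and 13.29 in K14Snail CD34 positive cells and at 12.12 and 11.56 in Mts24 positive cells, a difference of 1.59 ± 0.24 (3.01-fold, limma adjusted p = 0.0155). The Mts24 positive cells were therefore not low in Cd34: their own negative fraction held 10.03 and 10.51 and the CD34 negative fraction only 6.12 and 6.27. Lgr5, a Wnt-potentiating receptor of follicle stem cells, was at 12.38 and 12.23 against 9.84 and 9.78 (2.49 ± 0.25, adjusted p = 0.00499). Plet1 ran the other way, at 11.82 and 11.74 in CD34 positive and 12.88 and 12.64 in Mts24 positive cells (-0.98 ± 0.20, adjusted p = 0.031). Gata6, a transcription factor of the upper follicle and sebaceous duct, was at 10.26 and 11.13 against 11.91 and 11.77 (-1.15 ± 0.23, adjusted p = 0.0313). The CD34 positive and Mts24 positive arrays did not overlap for any of these genes, as for 46.4% of all tested and 98.3% of called genes, and all were above the 7.70 level in both fractions. Gata6 did not pass when only the 4 positive arrays were fitted (adjusted p = 0.0893). Without the K14Snail Mts24 positive array all of these markers missed the threshold. Their differences were then 1.25 for Cd34, 2.31 for Lgr5, -1.41 for Gata6 and -0.97 for Plet1. Fewer missed it without any other array. Gata6 and Plet1 did without the wild type Mts24 positive array, Cd34 and Plet1 without the wild type CD34 positive array, and Plet1 without the K14Snail CD34 positive array. Gata6 also missed it without either CD34 negative array or either Mts24 negative array.

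In all, 1408 of 10720 genes passed (13.1%), 905 higher in CD34 positive (8.44%) and 503 higher in Mts24 positive cells (4.69%). At least 2-fold apart were 265 and 180 of them. The count of each list below is to be read against these shares. Where arrays of the sorts are said below not to overlap, this holds for 46.4% of all tested and 98.3% of called genes. An unadjusted p under 0.05 was reached by 3094 genes, and the median difference over all tested genes was 0.02. In sorted bulk cells, fewer cells of a type and less RNA per cell cannot be told apart. Without the K14Snail Mts24 positive array 257 genes passed, 246 of them among the 1408, and without the wild type Mts24 positive array 459 did, 420 of them shared. It was 896 without either CD34 negative array and 926 without either Mts24 negative array. Only the 4 positive arrays gave 764 calls.

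Of the bulge stem cell genes, 15 of 25 tested were higher in CD34 positive cells and 0 in Mts24 positive cells, with a median of 0.96. The 15 include Cd34, on whose product the cells were sorted. Tbx1, a transcription factor that sustains bulge self-renewal, was at 12.46 and 11.89 in wild type and K14Snail CD34 positive cells and at 10.54 and 10.09 in Mts24 positive cells (1.86 ± 0.18, adjusted p = 0.00443). Lhx2, which maintains follicle stem cells, was at 12.79 and 12.44 against 11.42 and 10.81 (1.50 ± 0.24, 2.82-fold). The cytokine-binding matrix regulator Ltbp2 was at 10.90 and 10.21 against 8.62 and 8.28 (2.11 ± 0.25, 4.30-fold). For each of these the CD34 positive arrays lay above both Mts24 positive arrays. The secreted Wnt modulators Sfrp1, Dkk3 and Wif1 belong here too, and are described with the Wnt pathway. Smaller differences passed for Tcf7l1 (0.85), a Wnt-responsive repressor, Nfatc1 (0.78), which keeps bulge cells quiescent, Sox9 (0.52) and Krt15 (0.46), a bulge keratin at 12.92 to 13.67 in the positive arrays. Krt15 was also at 12.60 to 13.14 in the negative arrays. Its call was lost with only the 4 positive arrays and whenever any 1 of the 8 arrays was left out. Also passing were Npnt (1.69), a ligand of integrin alpha 8, Ccn2 (1.29) and Gas1 (0.96).

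Not every bulge gene distinguished the sorts. The surface protein Cd200 was at 10.36 and 10.65 in CD34 positive and 10.61 and 10.80 in Mts24 positive cells (-0.21 ± 0.08, adjusted p = 0.157), and Foxc1, a quiescence factor, at 10.24 and 10.23 against 10.43 and 10.41 (-0.19 ± 0.08, adjusted p = 0.21). Itga6 (-0.20), Cd44 (-0.20), Barx2 (0.15) and Tgfb2 (0.37) did not pass either. Krt24 (1.84 ± 0.47, adjusted p = 0.0599) and Fgf18 (1.29 ± 0.36, adjusted p = 0.0741) were at large differences but varied with genotype: Krt24 stood at 12.99 in wild type and 10.68 in K14Snail CD34 positive cells, and at 10.95 and 9.04 in Mts24 positive cells, so that the arrays of the sorts overlapped. Of the 15 bulge genes, 12 also passed with only the 4 positive arrays. The number was 10 without the wild type Mts24 positive array and 3 (Sfrp1, Tbx1 and Tcf7l1) without the K14Snail one.

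Of the upper follicle genes, 5 of 12 tested were higher in Mts24 positive cells and 0 in CD34 positive cells, with a median of -0.78. Klk10, a kallikrein protease, was at 9.87 and 10.74 in CD34 positive cells and 12.05 and 12.40 in Mts24 positive cells (-1.92 ± 0.19, 3.78-fold, adjusted p = 0.00467). The cysteine protease inhibitor Cst6 was at 12.19 and 12.55 against 13.15 and 13.34 (-0.88 ± 0.10). The proton pump subunit Atp6v1c2 was at 9.20 and 9.30 against 10.05 and 10.67 (-1.10 ± 0.14). Gata6 and Plet1, on whose product the cells were sorted, complete the 5. None of these overlapped between the sorts, as for 98.3% of called genes and 46.4% of all tested genes. Lrig1, an isthmus stem cell marker and EGF receptor inhibitor, was at 10.85 and 11.72 against 11.90 and 12.05 (-0.69 ± 0.30, adjusted p = 0.198). Krt79, a keratin of the upper follicle canal, was at 11.67 and 13.13 against 13.39 and 13.67 (-1.13 ± 0.36, adjusted p = 0.103). For both, the wild type CD34 positive array was the lowest of the 4. Lgr6 (0.39, adjusted p = 0.399) and Aqp3 (0.43, adjusted p = 0.0904) had positive differences. With only the 4 positive arrays 4 of the 5 passed. Without the wild type Mts24 positive array 2 did, and Klk10 alone without the K14Snail one.

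**Figure D1:**
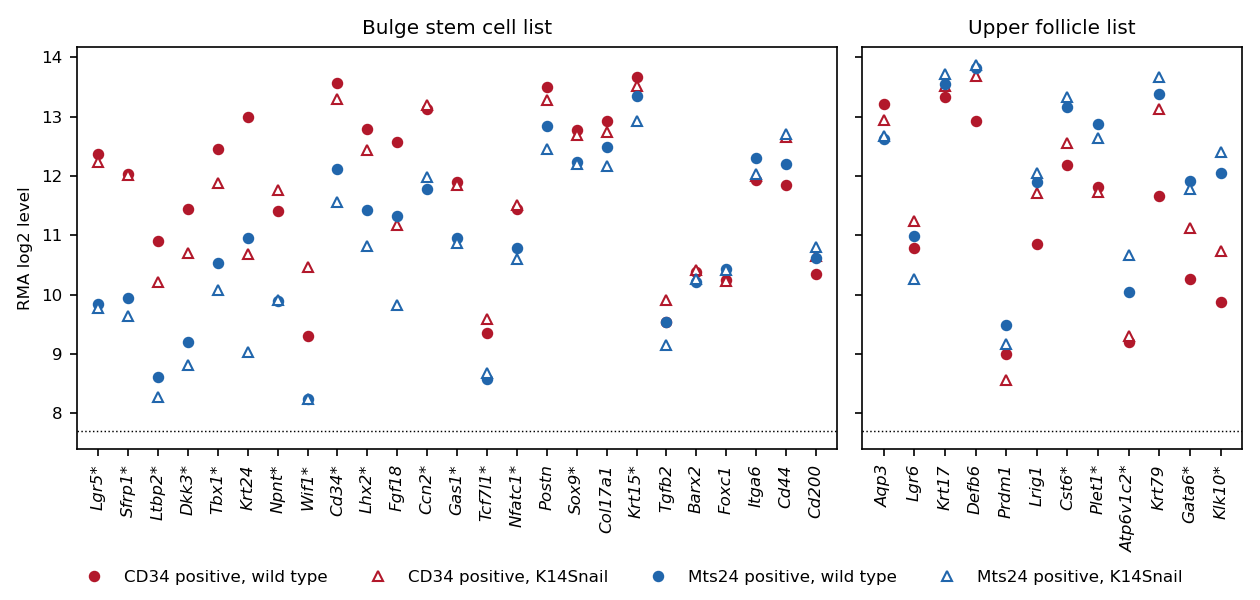
RMA log2 levels (vertical axis) of the 25 tested bulge genes and the 12 tested upper follicle genes in the 4 positive arrays, each symbol 1 array, ordered by their difference. An asterisk marks genes past adjusted p 0.05 and the dotted line the 7.70 level. Red symbols (CD34 positive) sit above blue ones (Mts24 positive) on the left, from Lgr5 at 2.49, and below them on the far right, down to Klk10 at -1.92.

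The 15 largest differences toward CD34 positive cells ran from 3.11 to 2.43. Scrg1, first known as a prion-responsive secreted factor, was at 9.00 and 9.81 in CD34 positive and 5.96 and 6.63 in Mts24 positive cells, a difference of 3.11. Trpv4, a calcium channel gated by warmth and cell swelling, was at 11.14 and 10.77 against 8.59 and 8.42 (2.45 ± 0.18, 5.48-fold), with 8.57 and 8.80 in Mts24 negative cells. The secreted glycoprotein Angptl7 was at 12.49 and 12.70 against 10.41 and 9.92 (2.43 ± 0.21). In each case both CD34 positive arrays lay more than the genotype gap above both Mts24 positive arrays. Gfra2, a receptor for the neurotrophic factor neurturin, varied more: it was at 11.07 in wild type and 8.84 in K14Snail CD34 positive cells, against 7.95 and 6.89 (2.54 ± 0.52, adjusted p = 0.0323). The mechanosensitive potassium channel Kcnk2 was likewise at 11.22 and 9.66 against 8.49 and 7.53 (2.43 ± 0.41). The others among the 15 largest were 1700019D03Rik (3.09), Minar2 (2.76), Tmtc1 (2.68), Pdzrn4 (2.64), Mir140 (2.59), the sialyltransferase gene St6galnac5 (2.58), Fstl1 (2.55), Phyhipl (2.49), Lgr5 and Itga1 (2.44). For Scrg1, 1700019D03Rik, Minar2, Mir140, St6galnac5, Phyhipl and Itga1 both CD34 positive arrays were the only ones of the 8 at or over 7.70. These 7, like 108 of the 905 calls toward CD34 positive cells and 8 of the 503 toward Mts24 positive cells, entered the test only through the sort where they are high, so they had to differ and their sizes depend on the array's background. All 15 passed with only the 4 positive arrays. Of the 15, 13 passed without the wild type Mts24 positive array and 10 without the K14Snail one.

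Mir140, the gene of miR-140, a microRNA best known from cartilage, was at 8.25 and 7.78 in CD34 positive cells and 5.52 and 5.32 in Mts24 positive cells. It was under 7.70 in the other 6 arrays, from 4.74 to 5.52, so its difference is a description. Of 43 tested microRNA genes, 3 were higher in CD34 positive cells and 0 in Mts24 positive cells, no larger a share than the 8.44% and 4.69% of all tested genes. Besides Mir140 these were Mir15a (8.35 and 7.77 against 7.04 and 6.89, and likewise under 7.70 in the other 6 arrays) and Mirlet7e (8.22 and 8.45 against 7.91 and 7.84, adjusted p = 0.0493), named after their values were seen. The probe sets read the gene and not its mature arms, which these arrays do not separate. The mature sequences from RefSeq (GRCm38.p6) are shown for these genes because they differ in the seed, bases 2 to 8, in capitals, which pairs with target messages. All 3 seeds differ. They lie at chr8:107551288-107551308 (plus strand), chr14:61632075-61632096 (minus strand) and chr17:17830366-17830387 (plus strand).

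mmu-miR-140-3p: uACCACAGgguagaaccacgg

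mmu-miR-15a-5p: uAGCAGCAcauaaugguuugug

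mmu-let-7e-5p: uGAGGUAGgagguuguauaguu

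Among the 15 largest genes toward CD34 positive cells, 9 had promoters in the RefSeq table (GRCm38.p6, from 250 bases before to 50 bases after each start). CTTTGA, the core of the sequence bound by TCF/LEF factors of the Wnt pathway, was searched on both strands. It lay in a promoter of 5 of the 9 genes (55.6%), beside 13.8% of the 8624 tested genes with a promoter. Among the 9, Phyhipl, 1700019D03Rik and Itga1 entered the test only through the CD34 positive arrays, and 1700019D03Rik and Itga1 hold the motif. The 9 genes have 20 promoters, more per gene than the 11000 of all tested genes, and by promoter the match was in 6 of the 20 and in 11.5% of the 11000. Among all genes that passed toward CD34 positive cells the share of genes was 14.5%, and among those toward Mts24 positive cells 16.9%, so the share in the 9 genes did not extend to the longer list. Of the 11 genes with a promoter among the 15 largest toward Mts24 positive cells, 2 held CTTTGA (13.3% of their 15 promoters). The windows below show the match in capitals for the genes with a single such promoter. A match is a description of these letters and not a binding site.

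Pdzrn4, plus strand, chr15:92396726-92396791: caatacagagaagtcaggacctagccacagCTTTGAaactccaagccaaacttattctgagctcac

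Trpv4, minus strand, chr5:114658554-114658619: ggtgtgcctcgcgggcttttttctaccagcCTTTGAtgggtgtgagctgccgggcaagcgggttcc

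Itga1, minus strand, chr13:115102042-115102107: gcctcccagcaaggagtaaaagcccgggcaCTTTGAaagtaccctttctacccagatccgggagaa

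Kcnk2, minus strand, chr1:189402459-189402523: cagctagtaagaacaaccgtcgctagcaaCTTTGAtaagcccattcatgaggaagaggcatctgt

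The matches begin 54 (Pdzrn4), 168 (Trpv4), 113 (Itga1) and 221 bases (Kcnk2) before the start, and 1700019D03Rik holds matches in more than 1 promoter. Other motifs were searched on both strands too. ACAAAG, a SOX-like motif whose other strand shares letters with the first motif, was in 20.0% of the 20 promoters and 13.5% of all promoters of tested genes. NFAT-like GGAAAA was in 20.0% and 20.1%. The LHX2-like motif TAATTA was in 5.0% and 2.5%, and the KLF-like motif CACCC in 65.0% and 63.8%. Counted by gene, the shares of these motifs in the 9 genes were raised as well. ACAAAG was in 33.3% and GGAAAA in 33.3%, beside 16.0% and 23.3% of the tested genes with a promoter. TAATTA was in 11.1% beside 3.1%, and CACCC in 100.0% beside 67.5%. A GATA-like motif, AGATAA, was in 0 of the 20 promoters, in 13.3% of the 15 promoters of the genes toward Mts24 positive cells (1 each of Epgn and Stra6), and in 6.2% of all promoters. With so few genes these shares carry no test.

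The 15 largest differences toward Mts24 positive cells ran from -2.92 to -1.95. Sprr4, a small proline-rich envelope precursor, was at 10.01 and 9.41 in CD34 positive and 12.23 and 13.03 in Mts24 positive cells (-2.92 ± 0.43, 7.55-fold, adjusted p = 0.0137). Sprr1b, of the same family, was at 7.54 and 8.98 against 10.07 and 11.66 (-2.61 ± 0.16, adjusted p = 0.00239). Close members of the Sprr family can share probe signal, so their values are uncertain. Il20ra, a receptor subunit for interleukins that act on keratinocytes, was at 8.48 and 6.97 against 10.43 and 9.88 (-2.43 ± 0.42). Il22ra2, a soluble decoy receptor for interleukin 22, was at 7.28 and 6.46 against 9.73 and 8.54 (-2.27 ± 0.29). Pglyrp4, which binds bacterial peptidoglycan, was at 7.89 and 7.27 against 9.35 and 10.50 (-2.34 ± 0.38). The sorts did not overlap for any of these, as for 98.3% of called genes and 46.4% of all tested genes. Epgn, an EGF receptor ligand of the upper follicle and sebaceous gland, was at 7.34 and 6.79 against 9.78 and 8.71 (-2.18 ± 0.15, adjusted p = 0.00266). Stra6, which takes up retinol, was at 7.91 and 9.11 against 10.04 and 10.94 (-1.98 ± 0.42, adjusted p = 0.0356). The others were Sectm1a (-2.31), the steroid-metabolizing enzyme gene Akr1c18 (-2.26), Abhd12b (-2.17), Ppp2r2c (-2.13), Mab21l4 (-2.10), Fos (-2.09), Slc46a2 (-2.05) and the epidermal lipase gene Lipk (-1.95). For Il22ra2, Epgn and Abhd12b both CD34 positive arrays lay under 7.70. With only the 4 positive arrays 14 of the 15 passed, all but Pglyrp4. Without the wild type Mts24 positive array 9 passed, and 5 (Epgn, Fos, Il22ra2, Ppp2r2c and Sprr1b) without the K14Snail one.

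**Figure D2:**
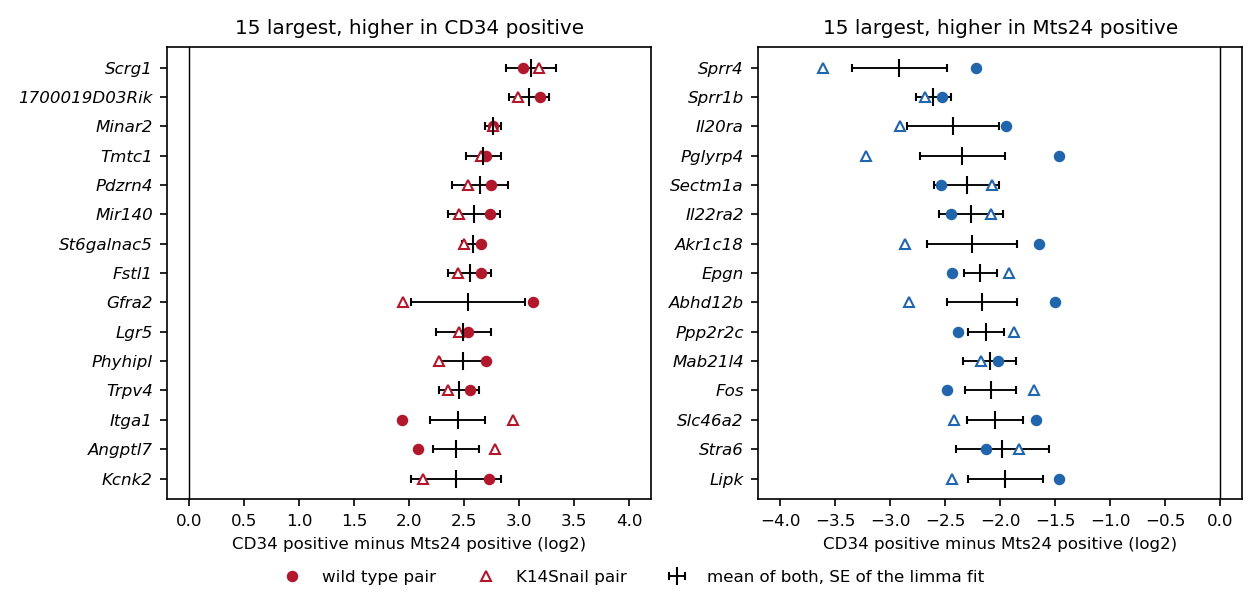
CD34 positive minus Mts24 positive on the log2 scale (horizontal axis) for the 15 largest genes in each direction. Filled circles are the wild type pair, open triangles the K14Snail pair, and black bars their mean with the standard error of the limma fit. The pairs of Minar2 fall together near 2.76, while those of Sprr4, Pglyrp4 and Gfra2 lie apart.

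Each positive fraction was also set against its own negative fraction. Most genes at least 2-fold higher in CD34 positive cells were enriched at least 2-fold by the CD34 sort. Most genes at least 2-fold higher in Mts24 positive cells were not enriched that far by the Mts24 sort. The genes were chosen with the same positive arrays that enter these enrichments, so such a split is partly built in. The matching shares over all tested genes are not given here, so the counts below are a description. Of the 265 genes at least 2-fold higher in CD34 positive cells, 186 were enriched at least 2-fold in CD34 positive over CD34 negative cells and not in the Mts24 sort. A further 53 were enriched in both sorts and 26 in neither. Of the 180 genes at least 2-fold higher in Mts24 positive cells, only 36 were enriched at least 2-fold in the Mts24 sort and 144 in neither. Of those 144, 107 were instead at least 2-fold lower in CD34 positive than in CD34 negative cells. Il20ra shows this pattern: it stood at 11.58 and 11.74 in CD34 negative, 11.00 and 11.23 in Mts24 negative and 10.43 and 9.88 in Mts24 positive cells, and at 8.48 and 6.97 in CD34 positive cells. So do Epgn (9.49 and 8.50 in CD34 negative and 9.55 and 8.45 in Mts24 negative cells) and Ppp2r2c (9.84 to 10.27 in both negative fractions, 7.61 and 7.91 in CD34 positive cells). The patterns are not exclusive: of the 180, 110 were at least 2-fold lower in CD34 positive than in CD34 negative cells, the 107 included. Sprr4 was enriched by the Mts24 sort, with 8.07 and 8.25 in Mts24 negative cells and 12.23 and 13.03 in Mts24 positive cells. It was also lower in CD34 positive than in CD34 negative cells. The Mts24 sort also enriched Stra6 (7.51 and 7.82 in Mts24 negative cells) and Gata6 (7.98 and 8.10), by 2.82 and 3.81.

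The sorts also shared enriched genes. At least 2-fold and past the test, 541 of all 10720 tested genes were enriched in CD34 positive cells over their negatives. In Mts24 positive cells 423 of the 10720 were, and 200 were in both sets (37.0% of the first and 47.3% of the second). Of the 200, 93 were higher in CD34 positive cells in the direct comparison, 0 were higher in Mts24 positive cells and 107 did not pass. Sox9, a regulator of follicle stem cells, was enriched by 2.38 in the CD34 and 2.40 in the Mts24 sort, and its direct difference of 0.52 sits beside one of 0.54 between the negative fractions. The difference of the enrichments was tested in the same fit, and 508 genes passed (4.74%), 288 for CD34 and 220 for Mts24, with 2117 at an unadjusted p under 0.05. Of the direct calls 32.5% were also called here in the same direction, and of the enrichment calls 90.0% were direct calls in the same direction. Both contrasts use the same positive arrays. Cd34 (5.66, adjusted p = 0.00449), Lgr5 (4.36, 0.00726), Gata6 (-3.44, 0.00841) and Plet1 (-2.63, 0.0106) passed, as did Sprr4 (-5.91, 0.00954). Cd34 and Plet1 are tied to the sorted antigens here too. In the bulge list 10 genes passed for CD34 and 2 for Mts24, Cd200 (-1.29) and Foxc1 (-1.62), named after their values were seen. In the upper follicle list 0 passed for CD34 and 6 for Mts24. Its median was -0.78 in the direct comparison, -1.63 for the enrichments and 1.03 for CD34 negative minus Mts24 negative cells. The negative fractions thus add to the enrichment difference of this list. Between them 0 of its 12 members were called in limma and 11 were at an unadjusted p under 0.05. Leaving out 1 array moved the 508 to between 74, without the wild type CD34 negative or the K14Snail Mts24 negative array, and 929, without the K14Snail CD34 positive array. It was 163 without the K14Snail CD34 negative, 158 without the wild type Mts24 negative, 166 without the wild type Mts24 positive and 121 without the K14Snail Mts24 positive array.

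**Figure D3:**
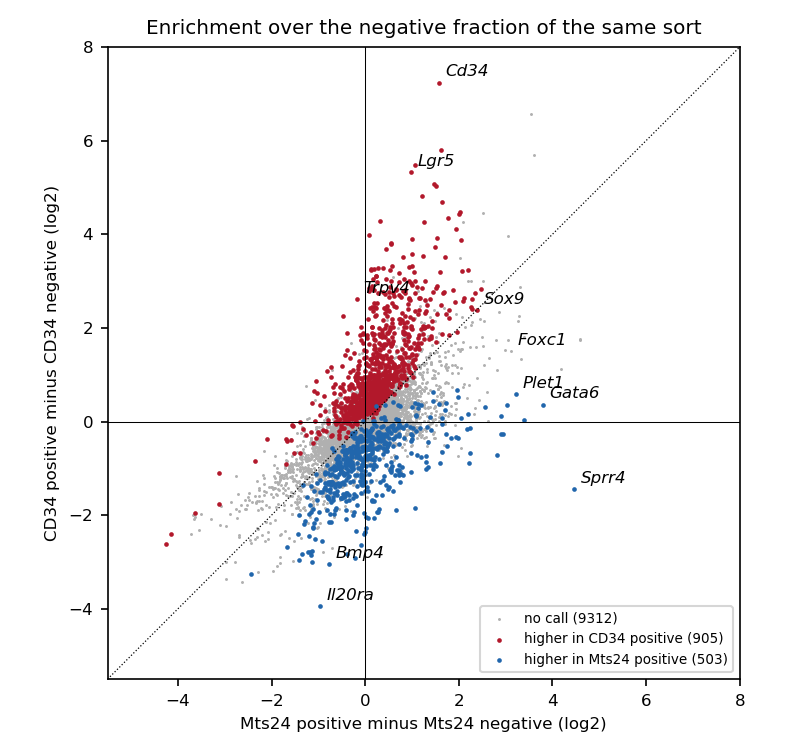
Each point is 1 of 10720 tested genes, with its enrichment in the Mts24 sort (horizontal) and in the CD34 sort (vertical) over the negative fraction, log2, averaged over genotypes. Red genes (905) were higher in CD34 positive and blue genes (503) higher in Mts24 positive cells in the direct comparison. Many blue genes lie below 0 on the vertical axis near 0 on the horizontal one, such as Il20ra and Bmp4, and the dotted line marks equal enrichment.

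Between CD34 negative and Mts24 negative cells 5 genes passed in limma (0.0466%), with 2070 at an unadjusted p under 0.05: Cd34 (-4.07), Cd200 (1.09), Foxc1 (1.43), Ntrk2 (1.02) and Vsnl1 (1.71), all named here after their values were seen. Cd34 was depleted from CD34 negative cells, at 6.12 and 6.27 against 10.03 and 10.51. Cd200, Foxc1 and Vsnl1, with 8.61 and 8.89, 8.72 and 8.73 and 10.69 and 10.60 in CD34 negative cells, were at 7.51 and 7.82, 7.37 and 7.22 and 8.99 and 8.87 in Mts24 negative cells. Of the 1408 direct calls 0 were called in the same direction here, and 2, Cd34 and Ntrk2, were called in the opposite direction. The count was 0 without any 1 of the negative or Mts24 positive arrays and 20 without either CD34 positive array.

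Set against CD34 positive cells, differentiation genes leaned toward Mts24 positive cells. Of 21 tested suprabasal genes 5 were higher there and 0 in CD34 positive cells, with a median of -0.74: Sprr1b, Sprr1a (-1.51), the protease gene Klk7 (-1.17), and Grhl3 (-1.44) and Ovol1 (-1.02), transcription factors of barrier formation. Grhl3 was at 9.78 and 9.45 in CD34 positive, 10.96 and 11.14 in Mts24 positive and 11.23 to 11.86 in negative cells. It was thus lowest in CD34 positive cells and below the negative fractions in both sorts. The envelope precursor Ivl (-1.47, adjusted p = 0.0585) and Casp14, a protease of the cornified layer (-1.99, adjusted p = 0.0843), did not pass. Within genotypes the suprabasal median was -0.35 for the wild type pair and -1.35 for the K14Snail pair. Over the negative fraction of the same sort it was -1.10 in the CD34 sort and -0.66 in the Mts24 sort. By this median both positive fractions were thus lower than their negatives. Of 15 basal epidermis genes 2 were higher in CD34 positive cells, Itga2 (0.87, adjusted p = 0.0441) and Thbs1 (1.14, adjusted p = 0.0495), beside 8.44% of all tested genes, 0 were higher in Mts24 positive cells, and the median was 0.18. Krt14, at 13.33 to 13.72 in all 4 arrays, did not pass (-0.24 ± 0.10, adjusted p = 0.176). Without either Mts24 positive array 2 of the 5 suprabasal calls remained, as with only the 4 positive arrays. Of the 2 basal calls 1 remained without the wild type Mts24 positive or the K14Snail CD34 positive array, and 0 without the wild type CD34 positive, the K14Snail Mts24 positive or any 1 of the 4 negative arrays, or after quantile normalization.

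Antimicrobial and alarm genes leaned the same way. Of 10 tested, 5 were higher in Mts24 positive cells and 0 in CD34 positive cells, with a median of -1.23 and a negative difference for all 10 in both genotypes. Il33, an alarm cytokine kept in the nucleus, was at 8.86 and 8.92 in CD34 positive and 10.90 and 10.30 in Mts24 positive cells (-1.71 ± 0.22, adjusted p = 0.00947). The defensin gene Defb1 was at 9.07 and 8.98 against 10.81 and 10.90 (-1.83 ± 0.16, adjusted p = 0.00367). Il1rn, the antagonist of the interleukin 1 receptor, was at 9.35 and 9.09 against 10.50 and 10.62 (-1.34 ± 0.13). None overlapped. Cxcl1 (-1.12) and Ccl20 (-1.52), chemokines for neutrophils and lymphocytes, passed with both CD34 positive arrays under 7.70. Il33 and Il1rn were at 10.44 to 11.35 in all negative arrays, above CD34 positive cells. Without the K14Snail Mts24 positive array 2 of the 5, Defb1 and Il33, remained. Without either CD34 positive array 3 did, these and Il1rn.

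Immediate early genes, which cells switch on within minutes of a stimulus and also during tissue dissociation, were higher in Mts24 positive cells for 8 of 16, with 0 higher in CD34 positive cells and a median of -1.10. Fos was at 10.33 and 10.84 in CD34 positive and 12.81 and 12.53 in Mts24 positive cells (-2.09 ± 0.23, adjusted p = 0.00666). Egr2 was at 10.03 and 10.85 against 12.12 and 12.42 (-1.83 ± 0.17, adjusted p = 0.004). Junb (-1.25), Dusp1 (-1.40), Ier2 (-1.31), Fosb (-1.37), Egr1 (-0.97) and Atf3 (-1.73) passed as well. The same genes in the cells left behind had a median of -0.43, with 0 calls in limma and 8 of 16 at an unadjusted p under 0.05: Fos was at 11.55 and 12.20 in CD34 negative and 12.69 and 12.68 in Mts24 negative cells. Over their own negative fraction Fos differed by -1.29 in the CD34 sort and by -0.01 in the Mts24 sort. In the test of the enrichments 1 of 16 passed, Egr2 (-2.34, adjusted p = 0.00905), which was at 10.20 and 10.37 in Mts24 negative cells. The part that the handling of each sort plays in these genes was not tested. Of the 8, 3 (Egr2, Fos and Ier2) passed without either Mts24 positive array and 5 without the wild type CD34 positive array.

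Transcription factors of the follicle divided between the sorts, with 13 of 33 higher in CD34 positive cells and 7 in Mts24 positive cells and a median of 0.09. Besides Tbx1, Lhx2, Tcf7l1, Nfatc1 and Sox9, CD34 positive cells were higher in Trps1 (1.04 ± 0.11), a GATA-type repressor needed for hair growth, and in Id2 (1.27 ± 0.17), an inhibitor of differentiation. On the other side, Ehf, an epithelial ETS factor, was at 8.04 and 9.36 in CD34 positive and 9.98 and 11.23 in Mts24 positive cells (-1.90 ± 0.08, adjusted p = 0.00127). K14Snail arrays were higher than wild type in both fractions, by about as much in each, and the sorts did not overlap. Sox21, a factor of hair shaft differentiation, was at 9.38 and 8.72 against 10.56 and 10.35 (-1.41 ± 0.14). Klf5 (-0.75 ± 0.09) was at 11.40 and 11.41 against 12.20 and 12.12. Grhl3, Ovol1 and Gata6 are described above, and Elf5 (-1.57), named after its value was seen, completes the 7. Without the K14Snail Mts24 positive array 2 of the 13 and 3 of the 7 (Ehf, Grhl3 and Klf5) remained. Without the wild type one 6 and 5 did, and 9 and 5 with only the 4 positive arrays.

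Of 40 tested Wnt pathway genes, 13 were higher in CD34 positive cells and 5 in Mts24 positive cells, with a median of 0.23. Those toward CD34 positive cells included receptors, inhibitors and the transcription factors Tcf7l1 and Tcf7l2 (0.67). The receptor gene Fzd2 was at 12.37 and 11.81 against 10.38 and 10.12 (1.84 ± 0.21, 3.58-fold), and Fzd3 (1.26 ± 0.11) and Fzd1 (0.76 ± 0.09) passed too. The inhibitor Sfrp1 was at 12.03 and 12.01 against 9.94 and 9.63 (2.24 ± 0.19, adjusted p = 0.00367), Dkk3 at 11.45 and 10.70 against 9.19 and 8.82 (2.07 ± 0.29), and Wif1 at 9.30 and 10.46 against 8.23 and 8.24 (1.65 ± 0.27). The intracellular inhibitor Nkd1 also passed (0.96 ± 0.10), with both Mts24 positive arrays under 7.70. Toward Mts24 positive cells lay the receptor Fzd10 (8.28 and 7.99 against 9.68 and 9.02, -1.22 ± 0.14) and 4 secreted activators, named after their values were seen: Wnt3 (-1.42), Wnt10a (-0.77), Wnt11 (-0.52) and Rspo3 (-1.16). Wnt3 was at 10.97 to 11.52 in negative cells, 10.03 and 9.48 in Mts24 positive and 8.99 and 7.67 in CD34 positive cells. Wnt3 and Fzd10 were thus lowest in CD34 positive and highest in negative cells. The feedback target Axin2 did not pass (-0.56, adjusted p = 0.0503). Of the 13, 4 remained without the K14Snail Mts24 positive array and 8 without the wild type one. Of the 5, 2 and 1 remained, and 9 and 3 passed with only the 4 positive arrays.

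Of the Hedgehog pathway, 7 of 12 tested genes were higher in CD34 positive cells and 0 in Mts24 positive cells, with a median of 0.68. They cover effectors, feedback and co-receptors. Gli2, the main activator, was at 9.70 and 9.45 in CD34 positive and 8.41 and 8.00 in Mts24 positive cells (1.37 ± 0.12, adjusted p = 0.00367). Gli1, a direct target used as a readout of the pathway, was at 8.74 and 9.03 against 7.91 and 7.29 (1.29 ± 0.22, adjusted p = 0.0207). The receptor and target Ptch1 was at 10.01 and 10.71 against 9.58 and 9.54 (0.80 ± 0.18, adjusted p = 0.041). The CD34 positive arrays of these genes lay above the Mts24 positive arrays. Hhip (1.58), which binds the ligands and lay under 7.70 in both Mts24 positive arrays, the co-receptors Gas1 (0.96) and Boc (0.80), and Disp1 (0.55), which releases the ligands, passed as well. The signal transducer Smo did not (0.26, adjusted p = 0.184). With only the 4 positive arrays 4 of the 7 passed, and Gli1, Disp1 and Ptch1 did not. Without the wild type Mts24 positive array 5 did, and 1, Gli2, without the K14Snail one.

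Of 41 BMP and TGF-beta pathway genes, 15 were higher in CD34 positive cells and 2 in Mts24 positive cells, with a median of 0.37. Fstl1, a secreted BMP antagonist, was at 9.57 and 10.72 against 6.92 and 8.28 (2.55 ± 0.20, adjusted p = 0.00304). Bmp2 was at 10.52 and 9.48 against 9.23 and 8.51 (1.13 ± 0.17), Smad9 at 9.36 and 8.75 against 7.77 and 7.20 (1.57 ± 0.23), and the inhibitory Smad7 at 9.60 and 9.76 against 8.49 and 8.42 (1.23 ± 0.09, adjusted p = 0.00296). Each was higher in both CD34 positive arrays than in either Mts24 positive array. The target Id2, at 13.18 and 12.76 against 11.87 and 11.52, passed, as did Id1 (0.94), Id3 (1.15), Id4 (1.15) and the antagonist Grem1 (1.83), which were named after their values were seen. The exceptions, also named after their values were seen, were Tgfbr3 (-0.91) and Bmp4, at 8.54 and 7.22 in CD34 positive and 10.33 and 9.28 in Mts24 positive cells (-1.92 ± 0.33, adjusted p = 0.0207). Bmp4 was highest in negative cells (10.56 to 11.07). Without the K14Snail Mts24 positive array 2 of the 15, Fstl1 and Smad7, and 0 of the 2 remained. Without the wild type one 5 and 0 did.

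In the Notch list 5 of 19 were higher in CD34 positive cells and 1 in Mts24 positive cells (median 0.06). The target Hey1 was at 9.29 and 9.40 against 8.06 and 8.12 (1.26 ± 0.08, adjusted p = 0.00266). The feedback inhibitor Nrarp was at 9.33 and 9.27 against 10.25 and 10.38 (-1.01 ± 0.11, adjusted p = 0.00622), so that these targets of the same pathway lay on opposite sides. Jag1 (0.59), Rbpj (0.51), Maml2 (0.74) and Numbl (0.62) passed as well. Without either Mts24 positive or the wild type CD34 positive array Hey1 was the 1 of the 5 that remained, and 2 did without the K14Snail CD34 positive array. Nrarp remained in each. In the FGF list 4 of 16 were higher in CD34 positive cells and 0 in Mts24 positive cells (median 0.23): the receptor Fgfr1 (12.09 and 11.99 against 10.84 and 10.73, 1.26 ± 0.13), the ligand Fgf1 (10.67 and 9.89 against 8.75 and 8.26, 1.77 ± 0.23), the feedback inhibitor Spry2 (0.69) and the decoy receptor Fgfrl1 (0.49, adjusted p = 0.0396). Without the K14Snail Mts24 positive array 0 of these 4 passed, and 3 without the wild type one. Fgfrl1 did not pass in 12 of the alternatives, among them only the 4 positive arrays, no filter, both other scalings and an intensity trend.

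Matrix genes were largely on the CD34 side, with 13 of 35 higher in CD34 positive cells and 1 in Mts24 positive cells and a median of 0.45. Sparc, a collagen-binding glycoprotein, was at 12.80 and 12.80 against 11.16 and 11.33 (1.56 ± 0.16, adjusted p = 0.00587). Fbln1 was at 11.49 and 11.39 against 9.82 and 9.87 (1.60 ± 0.20). The collagen VI chains Col6a1 (1.87 ± 0.30) and Col6a2 (1.28 ± 0.15) passed together, and so did Tnc (1.76), Egfl6 (1.77), a matrix protein laid down by bulge cells, Npnt and Col18a1 (0.93). Sparc and Fbln1 did not overlap between the sorts. Bgn, named after its values were seen, passed (1.54 ± 0.26, adjusted p = 0.0207) although the sorts overlapped, at 9.51 and 12.30 against 7.96 and 10.78, with K14Snail above wild type in both. Efemp1, named after its value was seen, was at 8.80 and 8.54 against 10.70 and 9.66 (-1.51 ± 0.32). Of 12 integrin genes 3 were higher in CD34 positive cells and 0 in Mts24 positive cells (median 0.35): Itga1 (8.17 and 9.35 against 6.23 and 6.41), a chain of a collagen receptor, Itgb6 (9.91 and 10.32 against 8.57 and 8.65), which activates TGF-beta, and Itga2. Itga1 entered the test only through the CD34 positive arrays, where it is high, so its difference is a description. Without the K14Snail Mts24 positive array 0 of the 13 matrix and 0 of the 3 integrin calls remained, and without the wild type one 3 and 2 did. Efemp1 did not pass without the wild type Mts24 positive or either CD34 positive array.

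**Figure D4:**
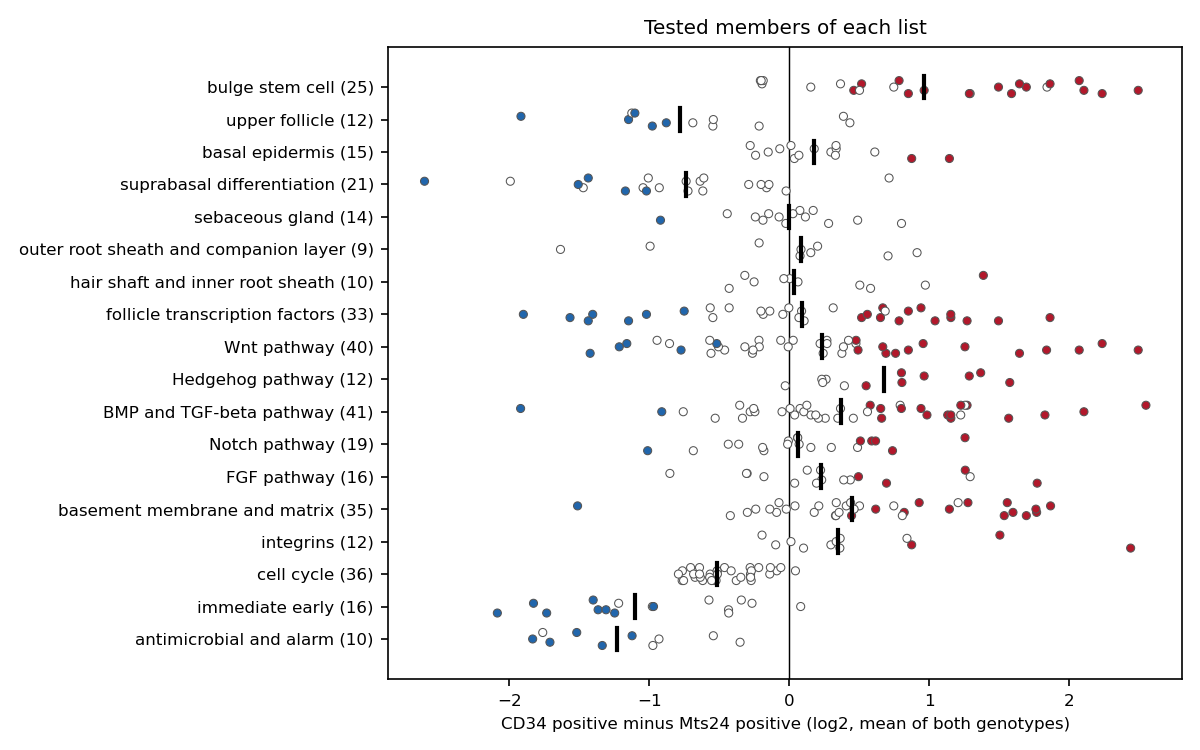
CD34 positive minus Mts24 positive (log2, horizontal axis) for each tested member of the lists, with the number tested in brackets. Filled red and blue circles passed adjusted p 0.05 toward CD34 positive and Mts24 positive cells, open circles did not, and black bars are medians. The bulge median is 0.96 and the immediate early median -1.10, while all 36 cell cycle circles are open.

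The difference was also taken within each genotype, with 1 array per fraction and no test. In wild type 648 genes were at least 2-fold apart (6.04%), 350 higher in CD34 positive cells and 298 in Mts24 positive cells. In K14Snail 655 were (6.11%), 299 and 356. Of these, 344 were 2-fold apart in the same direction in both genotypes and 10 in opposite directions. Across genes, which are not independent replicates, the differences of the genotypes correlated at r = 0.686. They differed from each other by at least 1 on the log2 scale at 309 genes, 32 of which are among the 1408 calls. Among the 1072 genes at or over a mean level of 11.17, 175 lay within 0.1 of equal in both genotypes.

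Cell cycle genes were among those that differed by genotype. Mki67, a marker of cycling cells, was at 8.30 in wild type and 10.74 in K14Snail CD34 positive cells, and at 10.22 and 10.36 in Mts24 positive cells. Top2a was at 8.01 and 10.36 against 9.68 and 10.03, and Ccna2 at 8.80 and 10.99 against 10.46 and 10.74. The wild type CD34 positive array was thus the low one, and the other 3 were close together. Over the 36 tested members the median difference reached -1.04 in wild type and 0.16 in K14Snail. Averaged over genotypes it was -0.52, and 0 members passed in limma in either direction, with 0 at an unadjusted p under 0.05. Without the K14Snail CD34 positive array, 29 of the 36 passed toward Mts24 positive cells, and without the wild type CD34 positive array 1 passed toward CD34 positive cells.

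Sebaceous gland genes differed by genotype in the other direction. Scd3, a desaturase of sebocyte lipid, was at 11.03 in wild type and 6.90 in K14Snail CD34 positive cells and at 8.95 and 8.00 in Mts24 positive cells. Far2, which makes fatty alcohols, was at 11.17 and 7.60 against 9.52 and 9.10. Here the CD34 positive arrays held both the highest and the lowest value of the 4 positive arrays. The list's mean level was 9.60 in wild type and 8.24 in K14Snail CD34 positive cells, and 9.47 and 8.33 in CD34 negative cells. In the Mts24 sort it was 8.99 and 8.83 in positive and 9.14 and 8.69 in negative cells. The list mean was thus lower in K14Snail in every fraction, and by more in both fractions of the CD34 sort. The list had a median of 0.58 in wild type and of -0.81 in K14Snail, and of 14 tested members 1 passed, Acsbg1, higher in Mts24 positive cells (-0.92 ± 0.09, adjusted p = 0.00535). Acsbg1, an acyl-CoA synthetase, was at 10.50 and 10.33 against 11.55 and 11.11, and at 11.28 to 11.62 in negative cells. The outer root sheath and companion layer list, keratins and other genes, had no call among 9 tested (0 with limma in either direction and 4 at an unadjusted p under 0.05), although Krt6b was at 8.31 and 8.71 against 8.89 and 11.40. Of 10 hair shaft and inner root sheath genes, 1 was higher in CD34 positive cells, Hoxc13 (9.90 and 9.54 against 8.33 and 8.33, 1.39 ± 0.19, adjusted p = 0.0103), a regulator of hair keratins. The share over all tested genes is 8.44%, and Hoxc13 did not pass without either Mts24 positive array.

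**Figure D5:**
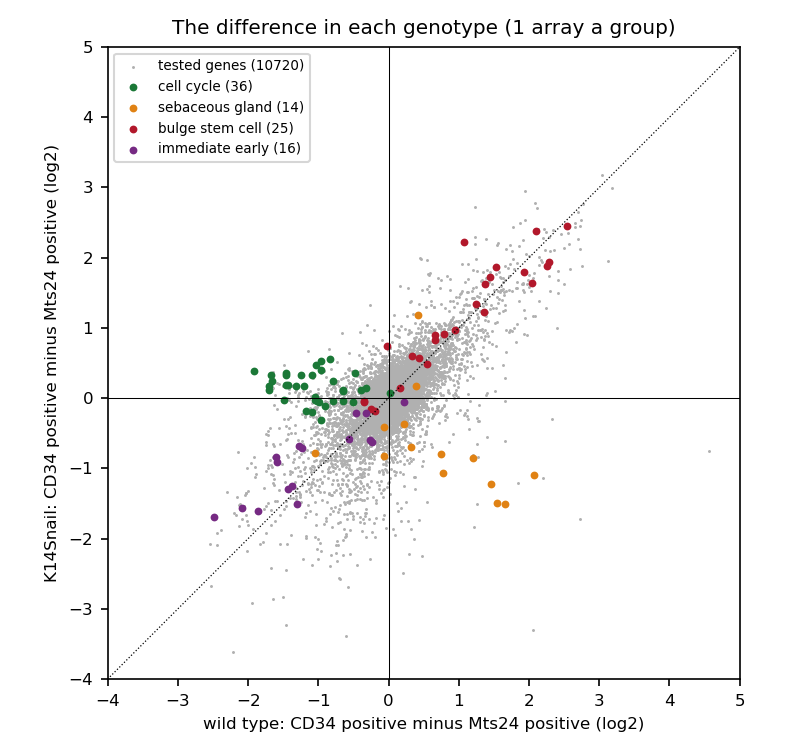
CD34 positive minus Mts24 positive (log2) in wild type (horizontal axis) and K14Snail (vertical axis), each point 1 of 10720 tested genes, with 1 array per group. The dotted line marks equal differences. Bulge genes (red) have a median of 0.95 in wild type and 0.98 in K14Snail, and immediate early genes (purple) -1.29 and -0.77. Cell cycle genes (green) have a median of -1.04 in wild type and 0.16 in K14Snail, and sebaceous gland genes (orange) 0.58 and -0.81.

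Markers of other cells of the skin were measured on the same arrays. Of 12 listed T cell genes 8 were tested, 3 higher in CD34 positive cells (Cd3g, Nkg7 and Cd3e) and 1 in Mts24 positive cells (Thy1). The mean level of the 10 on the array was 7.53 and 7.74 in CD34 positive, 7.29 and 7.13 in Mts24 positive and 9.11 to 9.75 in the negative arrays. Cd3g was at 8.70 and 9.29 against 7.56 and 7.60, and at 11.18 to 12.00 in negative cells, so that the negative arrays were the highest and the Mts24 positive arrays the lowest. The 3 calls were lost without either Mts24 positive array. Of 13 tested myeloid and Langerhans cell genes 0 passed in limma, with 0 at an unadjusted p under 0.05. In the positive arrays their mean level differed more by genotype than by sort, with 7.52 in wild type and 8.66 in K14Snail CD34 positive cells and 7.37 and 8.55 in Mts24 positive cells. The negative arrays were higher and did not share this order, with 9.18 in wild type and 8.75 in K14Snail CD34 negative cells and 9.36 and 9.25 in Mts24 negative cells. Of 6 tested melanocyte genes Mitf (11.33 and 11.12 against 9.90 and 9.46, adjusted p = 0.00383) and Dct (7.44 and 9.02 against 6.21 and 6.83, adjusted p = 0.0263) were higher in CD34 positive cells, and the list's mean level was 7.13 and 7.56 against 6.91 and 6.99. Mitf was higher in CD34 positive than in CD34 negative cells and Dct was not (2.75 and -1.10). Dct was not called without either Mts24 positive or either Mts24 negative array.

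Of 10 fibroblast genes 4 were tested and 2, Fbln1 and Col1a2 (0.68, adjusted p = 0.0107), were higher in CD34 positive cells. Their mean level was 7.10 and 7.25 against 6.95 and 6.90. The defining fibroblast gene Col3a1 did not pass (-0.09), and neither call remained without the K14Snail Mts24 positive array. Of 2 tested pericyte and smooth muscle genes Cnn1 was higher in CD34 positive cells (7.98 and 8.10 against 7.11 and 6.56, adjusted p = 0.0134), with the list's mean level at 6.80 and 7.17 against 6.83 and 6.87. Cnn1 reached 7.70 in the CD34 positive arrays only. It thus entered the test through the sort where it is high, and its difference is a description. No endothelial, mast cell, adipocyte or erythroid gene reached 7.70 on enough arrays to be tested, and mast cell means were 5.36 to 5.50. The tested Merkel cell gene (1) and Schwann and neural genes (2) did not pass. Xist and the Y-linked genes, 4 tested, did not pass either (Xist -0.46, adjusted p = 0.0658), with mixed-sex pools whose ratio the labels do not give. The part of these other cells and of the pools in the calls above was not tested.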

How the data were processed

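Per the labels' protocols, RNA of pooled, magnetically sorted keratinocytes was amplified, labelled with biotin and hybridised to Affymetrix arrays, 1 per genotype and fraction. The authors deposited log2 values per probe set made with RMA, per the submitters' processing notes; its version and the genome build are not given in the sources used here. Of 28874 probe sets, 21789 have 1 gene symbol, 1621 several and 5464 none in the platform annotation, and only the first were used. For the 999 genes with several probe sets, the one with the highest mean was taken. Genes that reached 7.70 on 2 or more of the 8 arrays were tested. Limma 3.58.1 (R 4.3.3) fitted fraction and genotype to all 8 arrays, with 3 residual degrees of freedom, 2.75 prior degrees of freedom and no pool block. The contrast lies between pools, and the estimated pool correlation was -0.175. Adjusted p-values are Benjamini-Hochberg's over all tested genes. The fit was also run on simulated data whose noise was independent between arrays. These data held no pool effect, so that run cannot bear on differences between pools. Tables and plots used Python 3.11.15, pandas 2.3.3 and matplotlib 3.10.9.

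Genes named are the 4 markers, the 15 largest calls each way that reached 7.70 in both arrays of the higher sort, the bulge and upper follicle lists, and up to 8 members of every other list by adjusted p. The 5 genes each way that differ most between genotypes were added. The comparison, the markers and the lists were chosen with earlier results of these data known. Where a setting leaves out an array, its group rests on 1 array that is assumed to vary like the others.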

Additional observations from a re-analysis of the deposited data

Results flagged for a closer look

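The genotypes moved in opposite directions for 10 named genes and 2 list medians. Each group has 1 array, so the difference between genotypes was not tested, and the values are K14Snail minus wild type of the CD34 positive minus Mts24 positive difference on the log2 scale. On the negative side the hair shaft keratin-associated genes Krtap7-1 (-4.45) and Krtap8-1 (-3.05), Scd3 (-3.17), Far2 (-3.16) and the fatty acid binding protein gene Fabp5 (-3.05) stood lowest. Krtap8-1 was at 9.76 in the wild type and 6.99 in the K14Snail CD34 positive array, and at 7.92 and 8.20 in the Mts24 positive arrays. On the positive side were the cell division genes Mki67 (2.30), Knl1 (2.02), Top2a (2.00), Aspm (1.96) and Ccna2 (1.91). The median over cell cycle genes was 1.20 and that over sebaceous gland genes -1.39. Because these genes were chosen for the size of this value, it is a description.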

How the results depend on the processing

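The 1408 calls became 764 (477 higher in CD34 positive, 287 in Mts24 positive cells) with only the 4 positive arrays, which leave 1 residual degree of freedom, and lay between 1288 and 1494 with a pool block, no filter, a filter on the positive arrays, other scalings, mean probe sets or an intensity trend. Leaving out 1 array gave 257 to 1214 calls, with 169 to 664 higher in CD34 positive and 88 to 550 in Mts24 positive cells. Of the 1408, 646 (45.9%) passed in every alternative that kept all arrays of its fit and 202 (14.3%) in all alternatives, and 0 were called in the opposite direction in any. The enrichment count of 508 ran from 74 to 929 without 1 array (50 to 439 for CD34, 17 to 490 for Mts24), and the 5 calls between negative fractions from 0 to 20, with 2 after quantile normalization and 14 with an intensity trend. The causes were not tested. The median difference of all genes was 0.02 as deposited, -0.01 after quantile normalization and -0.02 after subtracting array medians. No paired analysis by replicate number was possible because the labels carry none.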
